A study of Mus musculus with 3 samples.

Results

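Hox genes were examined in RNA of sorted mouse bone marrow cells, gene by gene along the 4 Hox clusters and probeset by probeset. Members were all genes whose symbol is Hox, a cluster letter from a to d and a number, and which had at least 4 probesets (groups of probes summarised as 1 value) listed for that gene alone. The rule used no measured value and gave 35 of 18865 genes, with 9 in HoxA, 10 in HoxB, 8 in HoxC and 8 in HoxD. The members with 4 probesets, just inside the limit, were Hoxa6, Hoxb8, Hoxc12 and Hoxd12, while Hoxc11 with 3 and Hoxa13 with 2 fell just outside. Hoxd4 was listed only on probesets that also carry Hoxd3. The 3 arrays form 1 group of freshly isolated GFP+ bone marrow cells from C57BL/6 mice, in which the nestin gene promoter controls GFP, and no second group was analysed here. The sort therefore depends on where that promoter is active, and the labels name no age, no number of animals and no pooling. Nothing in the labels says that the samples came from separate mice, so the p-values here reflect the scatter among 3 arrays and nothing wider, and that scatter may be technical.

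Hox genes encode homeodomain transcription factors that assign position along the body axis and along the limbs. Within a cluster the order of the genes follows their order of action, so that low-numbered genes act towards the head and high-numbered genes towards the tail and the far end of the limb. Genes with the same number in different clusters are paralogues. Adult stromal and bone cells keep part of the Hox pattern of the place where they arose, and blood stem and progenitor cells use several members of HoxA and HoxB as well. Hox proteins bind DNA together with Pbx, Meis and Pknox (Prep) proteins, Trithorax group proteins such as Kmt2a (Mll1) keep the clusters active, and Polycomb group proteins keep them silent.

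Of the 35 members, 20 had at least 1 promoter in RefSeq's table of assembly GRCm38.p6, with 22 start sites in all. The 250 bases before each start site were searched on both strands for TGATNNAT, the shared site of Pbx and Hox proteins, and for TATAAA, a core promoter element. TGATNNAT was found in 4 of 22 Hox windows (18.2%) and in 7.68% of 32851 windows of all genes, and TATAAA in 3 Hox windows (13.6%) and 12.4% of all windows. The 2 motifs shared no base in the Hox windows. The following windows are shown because Hoxb1 and Hoxa2 are the members above background that hold TGATNNAT, and Hoxa7 is the member with the largest margin among those with a promoter in the table. They read 5′ to 3′, and capitals mark the bases of TGATNNAT or its reverse complement.
Hoxb1, chr11:96365508-96365757, plus strand: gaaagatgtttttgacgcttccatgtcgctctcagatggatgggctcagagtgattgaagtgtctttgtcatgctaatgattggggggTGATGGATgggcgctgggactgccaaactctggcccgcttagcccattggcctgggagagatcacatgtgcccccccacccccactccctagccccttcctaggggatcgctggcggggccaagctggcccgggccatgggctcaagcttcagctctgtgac
Hoxa2, chr6:52164832-52165081, minus strand: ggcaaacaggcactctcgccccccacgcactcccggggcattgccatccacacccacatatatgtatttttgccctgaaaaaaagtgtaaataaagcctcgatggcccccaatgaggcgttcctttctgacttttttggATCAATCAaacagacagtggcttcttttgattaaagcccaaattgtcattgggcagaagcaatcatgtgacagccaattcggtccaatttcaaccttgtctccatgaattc
Hoxa7, chr6:52218574-52218823, minus strand: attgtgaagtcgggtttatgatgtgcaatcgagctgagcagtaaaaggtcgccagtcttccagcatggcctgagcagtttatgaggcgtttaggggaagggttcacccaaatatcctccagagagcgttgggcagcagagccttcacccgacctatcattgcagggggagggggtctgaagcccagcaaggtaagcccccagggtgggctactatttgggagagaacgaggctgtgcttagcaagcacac
The Hoxa7 window held neither motif, and among the windows of the 11 members above background that were in RefSeq's list, TGATNNAT was in 2 and TATAAA in 0. The median GC content was 58.6% over the Hox windows and 52.4% over all windows. A match is a description of these letters and does not show that a factor binds there.

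Each gene was summarised per array by the median over its probesets, on the log2 scale of the deposited values. With no second group, each gene was set against a threshold measured on the same array, the 95th percentile of 346 olfactory, vomeronasal and bitter taste receptor genes, which marrow cells should mostly lack. The threshold was 5.40, 5.57 and 5.59 on arrays 1, 2 and 3. The margin is a gene's mean distance from it, and a gene was called above background when limma's one-sided test, adjusted over all 18865 genes by the Benjamini-Hochberg method, gave an adjusted p below 0.05. Of all genes 9847 (52.2%) were called, and of the receptor genes 11 of 346. The cells carried perivascular stromal markers, with 10 of 12 called and Cxcl12 at 11.75 ± 0.14 (SD, n = 3). Osteoblast markers were called in 8 of 8 cases, endothelial markers in 10 of 13 and neutrophil markers in 6 of 7. The reporter's own gene, Nes, stood at 5.97, 5.21 and 5.56, which was not called (adjusted p = 0.631, limma). Pan-leukocyte markers were called in 3 of 10 cases, stem and progenitor markers in 5 of 10 and neuronal markers in 2 of 7. The median of 13 endothelial markers was 7.05, 5.98 and 7.61 on arrays 1, 2 and 3, and that of 7 neutrophil markers was 6.60, 6.51 and 8.13. In sorted cells measured in bulk, fewer cells of a type and less RNA per cell cannot be told apart.

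Of the 35 Hox genes 16 (45.7%) were called, beside 52.2% of all genes, and 20 lay above the threshold on all 3 arrays, beside 56.6% of all genes. In this main setting the share called was thus near that of genes at large. Their median margin was 0.38 on the log2 scale, compared with 0.55 over all genes. A list of 54 measured homeodomain factors of brain, eye, pituitary, gut and germ line, such as Otx2, Pax6 and Nkx2-1, gave 18 calls (33.3%) and a median margin of 0.22. Among these, Vax2 (7.74 ± 0.15, SD, n = 3), Hmx2 (7.22 ± 0.18) and Otp (7.15 ± 0.09) had the largest margins, and Pou3f4 (3.87 ± 0.11) had the smallest. With no minimum of probesets 6 of 35 Hox genes were called, a smaller share than the 33.6% of all genes. With at least 8 probesets it was 5 of 12, also a smaller share than the 58.4% of all genes. Summarising each gene by its mean probeset value gave 20 of 35 Hox genes, beside 56.2% of all genes. With the 99th percentile of the receptor genes as threshold, 4 of 35 Hox genes were called, a smaller share than the 23.2% of all genes. These were Hoxa4, Hoxa7, Hoxb3 and Hoxc6. With the 95th percentile of the other homeodomain factors, at 7.09, 7.04 and 6.89, limma called 0 of 35 Hox genes, beside 16.7% of all genes. At an unadjusted p below 0.05 that count was 3, and 3 Hox genes, Hoxa4, Hoxa7 and Hoxc6, lay above this threshold on all 3 arrays.

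**Figure D1:**
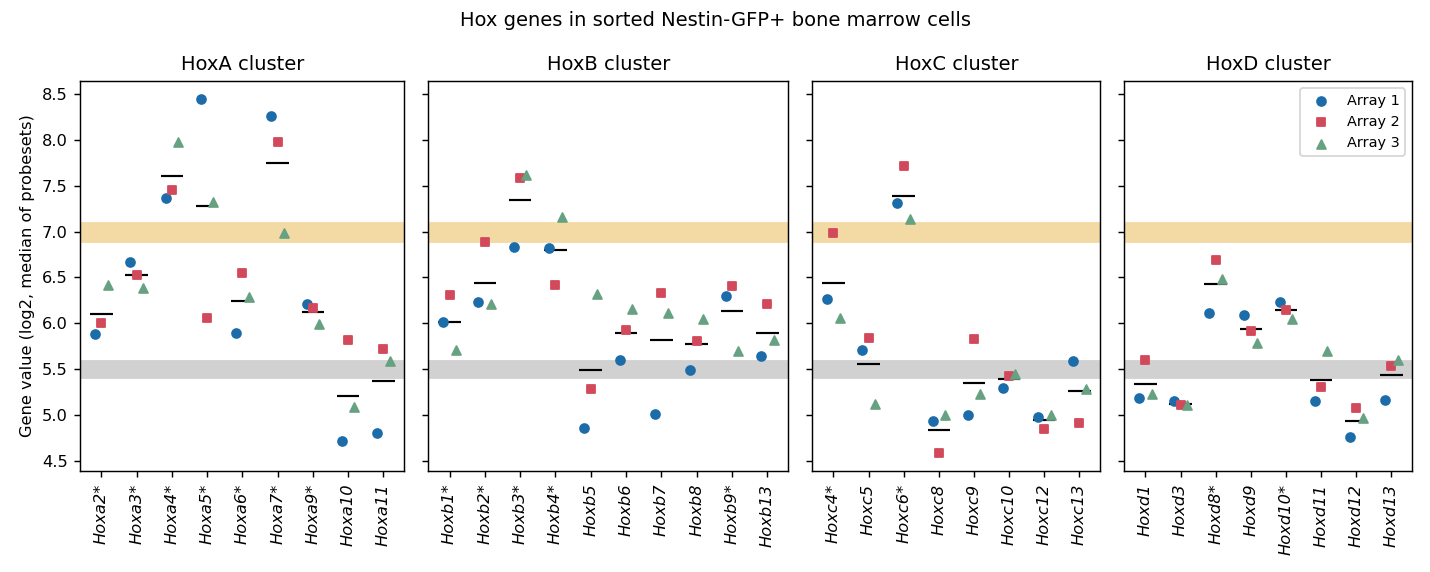
Gene values on the log2 scale (vertical axis) of the 35 Hox genes in cluster order, with 1 symbol per array and a bar at the mean of the 3 arrays. The grey band spans the chemosensory thresholds of the arrays and the tan band those of the other homeodomain factors, and asterisks mark the 16 called genes, of which 7 lie in HoxA.

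In HoxA a run of 7 neighbouring measured genes, Hoxa2 to Hoxa9, lay above background on every array, and the following Hoxa10 and Hoxa11 did not pass. Hoxa4 had 7.37, 7.46 and 7.97 on arrays 1, 2 and 3, a margin of 2.08 (adjusted p = 3.38e-05, limma). Hoxa7 had 8.26, 7.98 and 6.99, a margin of 2.22 (adjusted p = 0.000231, limma), and was lowest on array 3. By paralogue number both genes belong to groups 4 to 8, the central part of the cluster. Hoxa5, which patterns the neck, the lung and the skeleton of the shoulder region, had 8.45, 6.06 and 7.32 and was highest on array 1 and lowest on array 2. Its margin was 1.76 (adjusted p = 0.00575, limma), and its range of 2.39 was the widest of the members. Hoxa3, needed for thymus and parathyroid formation, stood at 6.66, 6.52 and 6.39, with little difference between the arrays.

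The remaining called HoxA genes lay closer to the threshold. Hoxa2, which patterns the second pharyngeal arch, had 5.88, 6.01 and 6.42, and it no longer passed once array 3 was left out (adjusted p = 0.0821, limma). Hoxa6 had 5.89, 6.55 and 6.29. Hoxa9, a regulator of blood progenitors that also acts in the limb, had 6.20, 6.16 and 5.99, a margin of 0.60 with an SD of 0.11. Hoxa10 and Hoxa11 shape the upper and middle segments of the limb and the uterus. Hoxa10 had 4.72, 5.82 and 5.09 and Hoxa11 had 4.81, 5.72 and 5.59, so that each lay above the threshold on 1 of 3 arrays.

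In HoxB the 4 lowest-numbered genes were called and those of the middle were not. Hoxb3 had 6.83, 7.58 and 7.62, a margin of 1.82 (adjusted p = 8.59e-05, limma), and Hoxb4, known for expanding blood stem cells when overexpressed, had 6.83, 6.42 and 7.16, a margin of 1.28. Hoxb2 had 6.23, 6.89 and 6.21. Hoxb1, which specifies a segment of the hindbrain, had 6.01, 6.31 and 5.71, and it failed when array 1 (adjusted p = 0.121, limma) or array 2 (adjusted p = 0.17, limma) was left out. The middle genes Hoxb5 to Hoxb8 straddled the threshold or lay just above it, with mean margins from -0.03 to 0.38. Among them Hoxb6 had 5.60, 5.93 and 6.16 and Hoxb8 had 5.49, 5.80 and 6.05, both above the threshold on every array without passing the test (adjusted p = 0.0596 and 0.153, limma). Hoxb7 had 5.01, 6.33 and 6.11 and was not called, although it passed without array 1 (adjusted p = 0.0248, limma). Hoxb9, a gene of the thoracic region, had 6.30, 6.41 and 5.70 and was called, but it failed when array 1 or array 2 was left out (adjusted p = 0.115 without array 1 and 0.083 without array 2, limma). Hoxb13, the gene of the tail end, had 5.65, 6.21 and 5.82, above the threshold throughout, but missed the test (adjusted p = 0.0686, limma).

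In HoxC 2 of 8 genes (25.0%) were called, beside 52.2% of all genes. Both lie among the lowest-numbered measured genes of the cluster, in groups 4 to 8. Hoxc6, a gene of the thoracic region, had 7.31, 7.72 and 7.14, a margin of 1.87 (adjusted p = 6.55e-05, limma), and Hoxc4 had 6.27, 6.99 and 6.06. Hoxc5, which lies between them, had 5.71, 5.84 and 5.12 and did not pass. From Hoxc8 to Hoxc13 the gene medians lay near or under the threshold, with margins from -0.68 for Hoxc8 to -0.13 for Hoxc10, a gene of the hindlimb region. Hoxc8, Hoxc10 and Hoxc12 were under it on all 3 arrays.

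In HoxD 2 of 8 genes were called, both in the middle of the cluster. Hoxd8 had 6.11, 6.69 and 6.49, a margin of 0.91, and Hoxd10, which acts in limb patterning and motor neurons, had 6.24, 6.15 and 6.05, a margin of 0.62. Hoxd9, between them, had 6.09, 5.92 and 5.79 and missed the threshold of the test (adjusted p = 0.0529, limma). The digit genes at the posterior end did not pass, with 5.15, 5.31 and 5.70 for Hoxd11, 4.76, 5.08 and 4.97 for Hoxd12 and 5.17, 5.53 and 5.60 for Hoxd13. Anterior Hoxd1 and Hoxd3 did not pass either, and Hoxd3 was the steadiest member, at 5.16, 5.11 and 5.11.

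By paralogue number, 5 of 7 genes of groups 1 to 3, 8 of 14 genes of groups 4 to 8 and 3 of 14 genes of groups 9 to 13 were called. Their median margins were 0.58, 0.82 and -0.13. All 3 measured genes of group 4, Hoxa4, Hoxb4 and Hoxc4, were called, and none of the 7 genes of groups 11 to 13 was. Among these 7 limma gave 0 calls, and Hoxb13 alone passed at an unadjusted p below 0.05 and lay above the threshold on all 3 arrays. The differences between clusters and between positions were not tested, and they change with the way probesets are summarised, as follows.

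The median hides large differences between the probesets of a gene. A probeset was counted as above background when it exceeded, on all 3 arrays, the 95th percentile of 3897 receptor probesets, at 6.95, 7.14 and 6.95. This held for 56 of 259 Hox probesets (21.6%), beside 28.1% of all named probesets and 84 of 514 probesets (16.3%) of the other homeodomain factors. Limma called 38 Hox probesets (14.7%), beside 21.4% of all named probesets. Of the 19 members that were not called by their median, 12 had at least 1 probeset above background on all 3 arrays and 8 had at least 2. Over all 35 members 74.3% had at least 1 and 45.7% at least 2, beside 79.6% and 62.9% of all genes. These shares are not like for like, because the median number of probesets was 7 for the Hox genes and 13 for all genes. Counted per probeset, the Hox share of 21.6% was not above the 28.1% of all named probesets. Of the 16 called members, Hoxa2 and Hoxa3 had none.

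Hoxc8, Hoxc9, Hoxc10 and Hoxd9 carried clear examples. The highest probeset of Hoxc9, a gene of the lower thoracic region, had 10.93, 10.96 and 10.72 on arrays 1, 2 and 3, while the median of the gene was 4.996, 5.82 and 5.23. The highest probeset of Hoxc10 had 10.20, 9.46 and 8.83, and that of Hoxc8 had 9.25, 9.25 and 8.05. In each of these 3 genes 2 of 6 probesets were above background on every array and the other 4 were not. Hoxd9, a gene of the upper limb segment and the lumbar region, had 4 of 12, and its highest stood at 12.04, 11.56 and 10.31 and the next at 12.00, 11.28 and 9.96. Its lowest probeset had a mean of 2.06. Hoxa10 had 2 of 10, with 8.37, 9.27 and 8.64 for the highest. Single high probesets also occurred in Hoxc13 (9.72, 9.79 and 9.74), Hoxd1 (9.74, 9.63 and 9.43) and Hoxb8 (9.69, 9.87 and 8.99), none of which was called by its median.

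Among called members the same spread was seen. Hoxb3 had 1 probeset at 13.38, 13.22 and 13.23 and another at 10.997, 11.16 and 11.38, while its median was 7.34. Hoxd8 had 1 of 7 above background, at 11.01, 10.11 and 10.79, and Hoxc4 had 1 of 9, at 10.84, 10.43 and 10.08. Hoxa7 had 7 of 14, the largest number of any member, with 10.81, 11.36 and 10.92 for the highest. Its share was smaller than that of Hoxa4 and of Hoxc6, each with 4 of 7. Hoxa5 had 2 of 5, at 10.56, 9.89 and 10.07 and at 9.65, 9.16 and 9.56, and these varied less between the arrays than the median of the gene did. A probeset above the 99th percentile of the receptor probesets on all 3 arrays was present in 14 of 35 members. That count was not made over all genes, so it has no background beside it. The Hox probesets above that percentile numbered 19 of 259 (7.34%), beside 9.96% of all named probesets and 2.33% of those of the other homeodomain factors. No probeset above background was present in 9 of the 35 members. Besides Hoxa2 and Hoxa3 these were Hoxa11, Hoxb5, Hoxb13, Hoxc5, Hoxc12, Hoxd12 and Hoxd13. The highest probesets of Hoxc12, Hoxd12 and Hoxd13 had means of 5.50, 5.80 and 6.14.

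**Figure D2:**
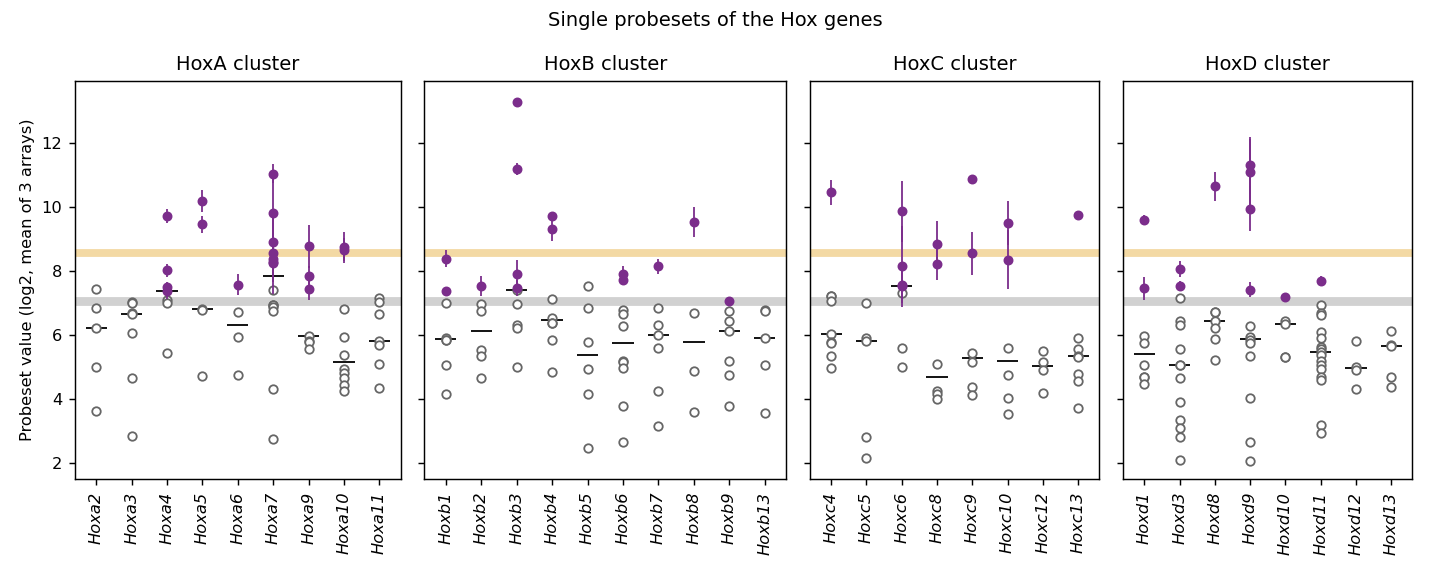
Each point is a probeset of a Hox gene at its mean over the 3 arrays on the log2 scale (vertical axis), with a short bar at the median of the points. Filled points with SD bars (n = 3) are the 56 probesets above the chemosensory threshold (grey band) on all 3 arrays, and the tan band spans the other homeodomain threshold. Hoxc9, Hoxc10 and Hoxd9 have high filled points although their medians lie low.

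When a gene's upper quartile over its probesets replaced the median, 14 Hox genes (40.0%) were called, beside 47.2% of all genes and 16 of 54 other homeodomain factors. This setting was chosen after the probeset values were seen. The calls shared 9 genes with those by the median, and 5 were added, namely Hoxb8, Hoxc8, Hoxc9, Hoxc10 and Hoxd9. HoxC then had 5 of 8 called in place of 2, HoxA 4 of 9 in place of 7, HoxB 4 of 10 and HoxD 1 of 8. For groups 1 to 3, 4 to 8 and 9 to 13 the counts were 2 of 7, 8 of 14 and 4 of 14. With the other homeodomain factors as threshold for the upper quartile, Hoxa5, Hoxa7 and Hoxb3 were called, beside 23.6% of all genes. Which exons or strands the high probesets cover was not examined here. In the RefSeq gene table Hoxa4, Hoxa5 and Hoxa6 lie within the span of Hoxa3, Hoxb4 within that of Hoxb3, and Hoxd10 overlaps Hoxd11, so signal of these neighbours may not be separable.

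Hox genes varied between the arrays about as much as other genes. The median SD was 0.30 on the log2 scale over the 35 members and 0.27 over all genes. Relative to all genes, the Hox genes had median deviations of -0.20, 0.09 and 0.07 on arrays 1, 2 and 3. Array 1 was the lowest for 18 members, array 2 for 6 (17.1%) and array 3 for 11. Over all 18865 genes these counts were 5699, 6199 (32.9%) and 6967. The endothelial markers had median deviations of 0.30, -1.13 and 0.62, and 12 of 13 were lowest on array 2. Those of the osteoblast markers were 0.27, -0.25 and -0.10, with 5 of 8 lowest on array 2 and 4 of 8 highest on array 1. Among the 6 members lowest on array 2, Hoxa5 had deviations of 1.14, -1.22 and 0.08. The endothelial genes Cdh5 (9.14, 6.05 and 9.58) and Emcn (8.50, 6.75 and 9.16) were also lowest on array 2. They were highest on array 3, and Hoxa5 was highest on array 1. The 2 Hoxa5 probesets above background differed less, at 10.56, 9.89 and 10.07 and at 9.65, 9.16 and 9.56. The part of endothelial or osteoblast RNA in the Hoxa5 values was not tested. Hoxb5 had 4.86, 5.28 and 6.32, and Hoxb5os, a non-coding gene that overlaps it, had 4.65, 5.64 and 6.54, so that both were lowest on array 1 and highest on array 3.

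**Figure D3:**
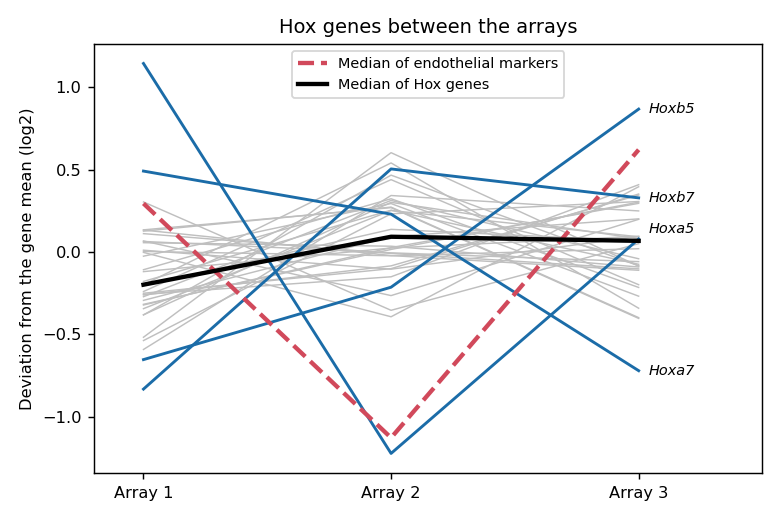
Deviation of each Hox gene from its own mean over the 3 arrays (vertical axis, log2, after removal of the median deviation of all genes), with 1 line per gene and named genes in blue. The solid black line is the median of the 35 Hox genes, at -0.20, 0.09 and 0.07, and the dashed red line the median of the endothelial markers, at 0.30, -1.13 and 0.62.

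The partners of Hox proteins were mostly above background. Of 8 measured cofactor genes 7 were called, beside 52.2% of all genes. Meis3 had 7.97, 8.68 and 7.64, Pbx2 had 8.68, 7.85 and 7.50 and Pknox2 had 7.39, 7.76 and 6.95, the largest margins of the list. Pbx3 lay at the threshold, with 5.50, 5.57 and 5.41. Against the other homeodomain threshold limma called 2 of the 8, beside 16.7% of all genes.

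Regulators of the clusters were also largely above background, as were 52.2% of all genes. All 10 genes of the Trithorax and activating list were called, with Psip1, which ties the Mll complex to chromatin, at 8.46 ± 0.36 (SD, n = 3), Kmt2a at 8.31 ± 0.39, the demethylase gene Kdm6a at 8.16 ± 0.08 and Kmt2b, the smallest margin, at 6.47 ± 0.12. Of 16 measured Polycomb genes 14 were called, with Ezh2, the methyltransferase of the repressive mark, at 8.56 ± 0.09, Bmi1 at 8.36 ± 0.13 and Ezh1 at 8.09 ± 0.06, while Ring1 (5.89 ± 0.62) did not pass. Median margins were 1.89 for both lists and 1.37 for the cofactors, compared with 0.38 for the Hox genes and 0.55 over all genes. Against the other homeodomain threshold the counts were 5 of 10 and 6 of 16, beside 16.7% of all genes. These genes had medians of 29.5 and 22.5 probesets, compared with 7 for the Hox genes.

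**Figure D4:**
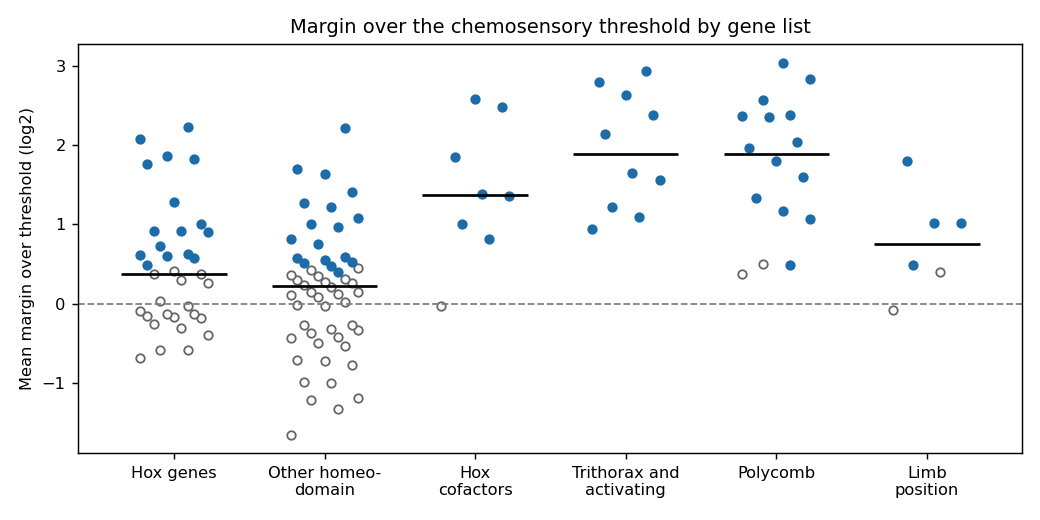
Mean margin over the chemosensory threshold (vertical axis, log2) for each gene of 6 lists, with filled points for genes called by limma and a bar at the list's median. Hox genes lie between -0.68 and 2.22, and the other homeodomain factors reach 2.22 as well.

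Other related genes were called in part, beside 52.2% of all genes. The share was 66.7% for both the flanking genes and the limb position factors below. The ParaHox genes, the sister set of the Hox genes, gave 1 call of 6, Gsx1 at 6.66 ± 0.11 (SD, n = 3), and the axial regulator Cdx4 was at 2.99 ± 0.13. Of 9 genes that flank the Hox clusters 6 were called, with the largest margins for Skap2 beside HoxA (7.93 ± 0.65), Mtx2 beside HoxD (7.68 ± 0.53) and Calcoco1 beside HoxC (7.05 ± 0.36), and the smallest for Ttll6 near HoxB (4.58 ± 0.26). Of 5 measured non-coding transcripts of the clusters 2 were called, both in HoxA. Hoxaas3 had 6.09, 6.27 and 6.57, and Hoxaas2 had 7.44, 7.14 and 5.17, a call that failed when array 1 (adjusted p = 0.274, limma) or array 2 (adjusted p = 0.0509, limma) was left out. Hoxa11os, antisense to Hoxa11, stood at 4.002, 4.30 and 4.26. The other 12 transcripts of that list, among them the clusters' microRNAs, were not analysed here. Of 6 limb position factors 4 were called, with Shox2 at 6.41, 7.89 and 7.65, the hindlimb gene Pitx1 at 6.70, 6.36 and 6.57 and Lmx1b at 6.30, 7.001 and 6.30. The other hindlimb gene, Tbx4, lay at the threshold with 5.43, 5.52 and 5.38.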

How the data were processed

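RNA of FACS-sorted GFP+ bone marrow cells was amplified with the WT-Ovation Pico system, converted with the WT-Ovation Exon Module, labelled with biotin and hybridised to 3 Affymetrix exon arrays, per the labels' protocols. The authors deposited log2 values of 1256831 probesets per array, made with Affymetrix Expression Console 1.1 and RMA, per the submitters' processing notes for the names of the tools. Neither the settings of RMA nor a genome build for the probesets was given in the sources used here. No second normalization was applied.

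The platform annotation gave 1 gene symbol to 318760 probesets, several to 6684 and none to 931387, and 4227 symbols were updated through the RefSeq table. Genes with at least 4 probesets, 18865 in all, were tested with limma 3.58.1 in R 4.3.3 as an intercept over the 3 arrays after subtraction of each array's threshold, one-sided, with Benjamini-Hochberg adjustment. The number of arrays limits the precision. On simulated data for this comparison, run on 18865 genes, the test called 1 of 50 genes placed at the threshold, 25 of 50 with a margin of 0.5, 38 of 50 with 1 and 49 of 50 with 2. Other genes with small or moderate margins were moved below the threshold there, so fewer genes lay above it than in the real data. The adjusted cutoff was therefore stricter, and these counts do not give the recovery of the real test. Where genes are ordered by margin, the order is one of array values and not of RNA amounts, because probes differ in their response. All members are named, and of each gene list up to 3 called genes with the largest margin and the 1 with the smallest. The members and the lists were chosen with earlier results of these data known. Alternatives covered the summary over probesets, the probeset minimum, probesets at 0, the threshold, array scale, symbols and each array left out.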

Additional observations from a re-analysis of the deposited data

Results flagged for a closer look

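Hoxd4 entered no comparison, because its 13 probesets are listed for both Hoxd4 and Hoxd3. Of these, 4 lay above the chemosensory probeset threshold on all 3 arrays, and the highest had 9.79, 9.19 and 9.76 on the log2 scale on arrays 1, 2 and 3. The median over the 13 was 4.74, 5.10 and 5.38. The signal cannot be assigned to either gene.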

How the results depend on the processing

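The count of 16 Hox genes above background was 20 with the mean over probesets (56.2% of all genes), 17 with symbols not updated, 16 without probesets at 0 and with a common array median, and 14 to 15 when each array was left out. It was 6 with no minimum of probesets (33.6% of all genes), 5 of 12 with at least 8 probesets (58.4% of all genes), 4 with the 99th percentile threshold and 0 with the other homeodomain threshold (limma). The upper quartile gave 14, and with the other homeodomain threshold 3, both chosen after seeing the data. In the same order of thresholds, all genes gave 4376 (99th percentile), 3159 (other homeodomain) and 4457 (upper quartile with other homeodomain), from 9847, and 8980 to 9507 with an array left out. The other homeodomain factors gave 7 with no minimum, 10 with at least 8 probesets, 2, 1 and 0 under those thresholds, from 18 (the last 2 counts are low by construction, since these genes set the threshold), and 12 to 17 with an array left out. Of the 56 Hox probesets above background 19 passed the 99th percentile and 20 the other homeodomain probeset threshold (chosen after seeing the data), and 61 to 63 were counted with an array left out.

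Among the called genes that the report names, Hox or listed, margins turned negative under the 99th percentile for Hoxa2 (-0.52), Hoxa3 (-0.10), Hoxa6 (-0.38), Hoxa9 (-0.50), Hoxb1 (-0.61), Hoxb2 (-0.18), Hoxb9 (-0.49), Hoxc4 (-0.18), Hoxd8 (-0.19), Hoxd10 (-0.48), Hoxaas2 (-0.036), Hoxaas3 (-0.31), Kmt2b (-0.15), Lmx1b (-0.085) and Pitx1 (-0.077). Under the other homeodomain threshold those that turned negative were Hoxa2 (-0.90), Hoxa3 (-0.48), Hoxa6 (-0.76), Hoxa9 (-0.89), Hoxb1 (-0.997), Hoxb2 (-0.57), Hoxb4 (-0.21), Hoxb9 (-0.87), Hoxc4 (-0.57), Hoxd8 (-0.58), Hoxd10 (-0.86), Hoxaas2 (-0.42), Hoxaas3 (-0.70), Kmt2b (-0.54), Lmx1b (-0.47), Pitx1 (-0.46) and Gsx1 (-0.35). Among called genes with the upper quartile these were Hoxa2 (-0.094), Hoxb9 (-0.14) and Hoxd10 (-0.10), and with no minimum of probesets Hoxb1 (-0.028). Of the members not called, Hoxb6, Hoxb7, Hoxb8, Hoxb13, Hoxc5 and Hoxd9 also went from a positive to a negative margin under both stricter thresholds and with no minimum, and Hoxb13 and Hoxc5 with the upper quartile. A higher threshold lowers every margin by construction. Of the 16 called genes 13 stayed called without each array in turn. No paired analysis was possible because all samples belong to 1 group.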
